A study of Mus musculus with 13 samples.

Results

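The genes described are the 6 core components of angiopoietin and Tie signaling: the ligands Angpt1 and Angpt2, the receptors Tek (also called Tie2) and Tie1, the phosphatase Ptprb and the transcription factor Foxo1. They were chosen by symbol, as 6 of the 55416 gene rows of a count table from mouse brain, and all 6 passed the filter on low counts. RNA was sequenced from whole brain tissue, without cell sorting, in 13 libraries of 4 groups. The first group was Slco1c1-iCreERT2;Pdcd10fl/fl mice in hypoxia (KO hypoxia, n = 4), and the second was Pdcd10fl/fl mice in hypoxia (flox hypoxia, n = 3). The same genotypes in normoxia formed the other groups, KO normoxia (n = 3) and flox normoxia (n = 3). Hypoxia was 12% oxygen for 7 days and normoxia was 21% oxygen. Every group carries loxP-flanked Pdcd10 (Ccm3), a gene whose loss from endothelium causes cerebral cavernous malformations, and the KO mice also carry a tamoxifen-regulated Cre driven by the Slco1c1 promoter, which is active in brain endothelium. The Cre was activated with 50 µg of 4-hydroxytamoxifen given on postnatal day 1. The series' text also mentions Cre-carrying littermates without injection as controls, but the genotype label of each flox library is Pdcd10fl/fl. The sources used here do not say whether the flox mice were injected, nor the age at collection, so deletion, Cre and injection cannot be told apart in the KO.

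Tek is a receptor tyrosine kinase of endothelial cells. Angpt1, made mainly by pericytes and other cells around vessels, activates it and keeps vessels quiet and tight, whereas Angpt2, made by endothelial cells themselves, competes with Angpt1 and acts as an antagonist or weak agonist that loosens vessels during remodelling. Tie1 is a partner receptor that pairs with Tek, and Ptprb, the vascular endothelial protein tyrosine phosphatase, dephosphorylates Tek. Active Tek signals through Akt, which keeps Foxo1 out of the nucleus, and nuclear Foxo1 drives transcription of Angpt2.

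The promoters of the receptors are shown because both receptor transcripts were higher in KO in each oxygen level and followed one another across libraries. Of the 6 members, Tek, Tie1 and Foxo1 matched an entry in the RefSeq promoter table (build GRCm38.p6), which holds 250 bases before and 50 after each gene's start. Tek lies on the plus strand (chr4:94739039-94739338) and Tie1 on the minus strand (chr4:118489800-118490099). Capitals mark the core letters of ETS factor motifs, GGAA, or TTCC on the other strand.
Tek: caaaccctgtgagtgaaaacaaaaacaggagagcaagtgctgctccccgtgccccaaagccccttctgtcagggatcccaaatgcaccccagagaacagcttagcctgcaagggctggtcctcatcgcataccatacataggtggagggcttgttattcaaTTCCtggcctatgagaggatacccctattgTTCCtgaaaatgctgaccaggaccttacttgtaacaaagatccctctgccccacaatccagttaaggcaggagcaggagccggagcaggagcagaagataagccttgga
Tie1: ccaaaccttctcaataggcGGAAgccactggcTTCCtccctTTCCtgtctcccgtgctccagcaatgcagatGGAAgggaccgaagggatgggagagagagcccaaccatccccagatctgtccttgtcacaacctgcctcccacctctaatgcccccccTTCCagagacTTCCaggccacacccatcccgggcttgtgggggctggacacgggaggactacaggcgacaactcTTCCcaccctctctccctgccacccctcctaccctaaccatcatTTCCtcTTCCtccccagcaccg
The Tek window held 2 such cores, the Tie1 window 9 and the Foxo1 window 2, where 96% of 32851 promoters of the same length held at least 1, the median was 3 and 1.59% held 9 or more. The letters TGTTTAC or GTAAACA, a motif of forkhead factors, were in none of the 3 windows and in 3.65% of all promoters. The hypoxia response core ACGTG or CACGT was also in none of the 3, against 19.6% of all promoters. A match in these windows is only a match of letters.

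The libraries held 42090437 to 71216636 counts, and 3 counts correspond to 0.0421 to 0.0713 CPM, the count scaled to library size. KO hypoxia replicate 1 stood apart from the rest of its group, with a chi-square per degree of freedom over genes of 42.3 to 48 against the other libraries of that group, which lay at 10.5 to 16.3 among themselves. Values without that library are given beside the main results that rest on KO hypoxia. Every library is labelled male, but Xist reached at least 1 CPM in 2 KO hypoxia libraries, 1 KO normoxia library and 1 flox normoxia library. Whole-tissue Pdcd10 averaged 16.4 ± 1.09 CPM in KO hypoxia (SD, n = 4) and 17.4 ± 0.194 CPM in flox hypoxia (n = 3), and 16.9 ± 1.07 CPM in KO normoxia and 17.1 ± 0.799 CPM in flox normoxia (n = 3 each), so this count does not show the endothelial deletion.

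Between KO and flox brains within hypoxia, 5 of the 6 genes were called higher in KO (Angpt1, Angpt2, Tek, Tie1 and Ptprb). Within normoxia 4 were (these without Angpt1), each with no overlap between the genotypes' libraries. Of all 22507 genes tested, 6.78% were called higher and 2.28% lower in hypoxia, and 1.96% higher and 0.369% lower in normoxia, at an adjusted p under 0.05 by edgeR's quasi-likelihood test with Benjamini-Hochberg adjustment. Groups did not overlap, with KO higher, for 11.5% of genes in hypoxia and 10.5% in normoxia. The median log2 fold change of the 6 genes, KO over flox, was 1.03 in hypoxia, where that of all genes was -0.009, and 0.99 in normoxia, where that of all genes was -0.004. Under hypoxia itself, Angpt2 rose in KO brains (0.622% of genes were called higher there and 0.275% lower) and no member was called in flox brains (0.0222% called higher and 0% lower). In flox brains 5 genes in all were called by edgeR, while 1497 (6.65%) had an unadjusted p under 0.05 and DESeq2 called 67. No member was called for the interaction, the difference between the oxygen effects of the genotypes, for which edgeR called 0 genes (0% in either direction), 1635 genes (7.26%) had an unadjusted p under 0.05 and DESeq2 called 5.

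**Figure D1:**
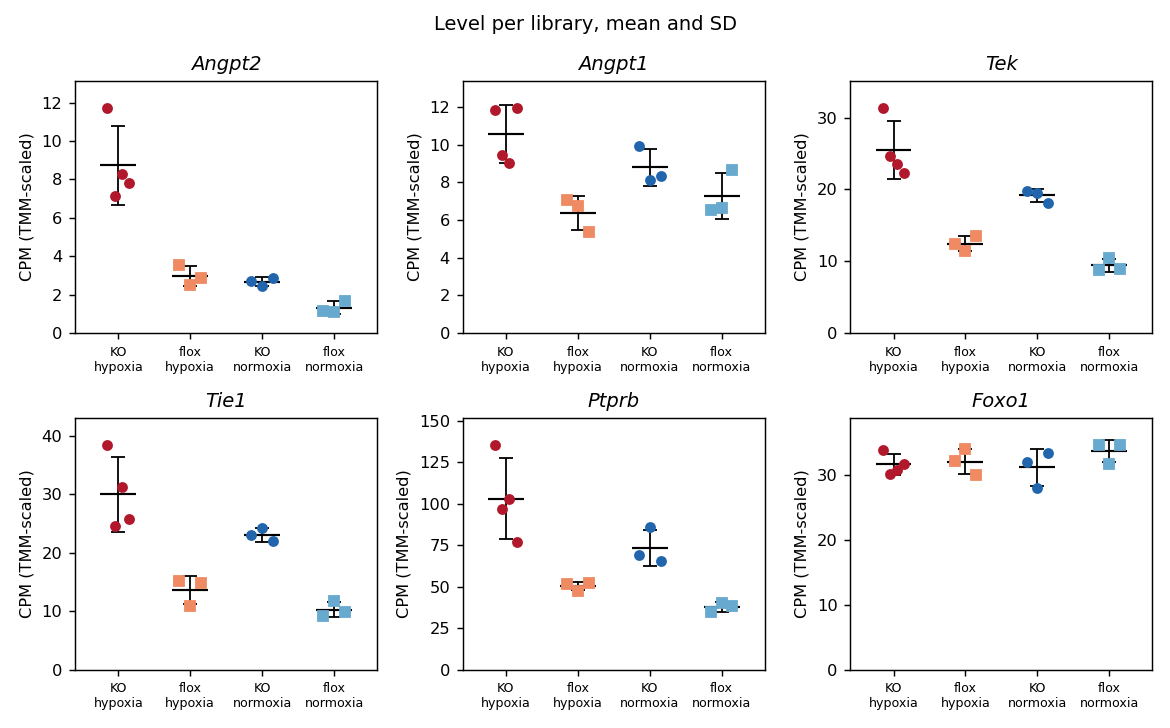
CPM of each of the 6 genes (vertical axes, linear, each starting at 0) in the 13 libraries, by group from left to right KO hypoxia, flox hypoxia, KO normoxia and flox normoxia; points are libraries and bars the mean with SD. Tek lay between 22.3 and 31.4 CPM in KO hypoxia and Foxo1 between 28.1 and 34.7 CPM over all libraries.

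The ligand Angpt2, the context-dependent antagonist of Tek, had 11.7, 7.14, 8.26 and 7.82 CPM in KO hypoxia. It had 3.53, 2.49 and 2.89 CPM in flox hypoxia. In normoxia it had 2.69, 2.47 and 2.89 CPM in KO brains, against 1.17, 1.08 and 1.69 CPM in flox brains. Each KO hypoxia library was thus well above every other library, flox hypoxia and KO normoxia overlapped, and flox normoxia was lowest. These levels rest on 349 to 689 counts per library in KO hypoxia and on 61 to 113 in flox normoxia, so Angpt2 is the member with the fewest counts.

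Angpt2 rose in KO brains in hypoxia, to 8.73 ± 2.04 CPM in KO (SD, n = 4) against 2.97 ± 0.527 in flox (n = 3), with a log2 fold change of 1.55 ± 0.19 (SE, 95% interval 1.16 to 1.95, adjusted p = 8.49e-05). Without KO hypoxia replicate 1 the log2 fold change was 1.38 (adjusted p = 4.83e-05). In normoxia it rose to 2.68 ± 0.212 CPM in KO against 1.31 ± 0.331 CPM in flox (n = 3 each), a log2 fold change of 1.01 ± 0.21 (adjusted p = 0.0189). That normoxic call was lost on leaving out flox normoxia replicate 1 (adjusted p = 0.0866) or 2 (0.0858), or KO normoxia replicate 1 (0.0628) or 3 (0.062), with log2 fold changes from 0.89 to 1.01. It was also lost with limma on log2(RPKM + 1), a scale that understates changes of low genes (0.35, adjusted p = 0.18).

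Across oxygen levels, Angpt2 rose in KO brains with a log2 fold change, hypoxia over normoxia, of 1.71 ± 0.19 (adjusted p = 0.00282), the largest of the 6 genes in the 5 contrasts, and of 1.53 without KO hypoxia replicate 1 (adjusted p = 0.000526). In flox brains the value was 1.17 ± 0.22 with no overlap between the groups, an unadjusted p of 6.2e-05 and an adjusted p of 0.122, which does not pass. It did pass with DESeq2 (adjusted p = 0.000175), with no filter on low counts (2.97e-05) and without flox normoxia replicate 3, the highest of its group (log2 fold change 1.40, adjusted p = 0.0192). The interaction was 0.54 ± 0.28 with a 95% interval of -0.06 to 1.14 (adjusted p = 0.701), so a larger oxygen effect in KO than in flox was not detectable with these libraries. Mcph1, a gene with a role in the DNA damage response, spans Angpt2 on the opposite strand with no exon in common, and no source used here gives the strand setting of the counting. Mcph1 had 414 to 831 counts per library. Its log2 fold change, KO over flox, was -0.30 ± 0.11 in hypoxia (adjusted p = 0.0968 by edgeR) and -0.02 ± 0.11 in normoxia (0.976). Hypoxia over normoxia was 0.22 ± 0.11 in flox (adjusted p = 0.801 by edgeR) and -0.06 ± 0.11 in KO (0.845). Whether reads of Mcph1 entered the Angpt2 counts was not tested.

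Angpt1, the agonist of Tek, had 11.8, 9.43, 9.01 and 11.9 CPM in KO hypoxia, against 7.04, 6.73 and 5.35 CPM in flox hypoxia. In normoxia it had 9.93, 8.14 and 8.33 CPM in KO brains, against 6.52, 6.64 and 8.67 CPM in flox brains. The genotypes did not overlap in hypoxia and overlapped in normoxia through flox normoxia replicate 3. In hypoxia Angpt1 rose to 10.6 ± 1.55 CPM in KO against 6.37 ± 0.899 CPM in flox, a log2 fold change of 0.72 ± 0.14 (adjusted p = 0.00336; 0.66 and adjusted p = 0.00937 without KO hypoxia replicate 1). In normoxia the log2 fold change was 0.27 ± 0.15 (95% interval -0.04 to 0.58, adjusted p = 0.448). Between oxygen levels, hypoxia over normoxia, the value was 0.26 ± 0.13 in KO (adjusted p = 0.401) and -0.19 ± 0.15 in flox (adjusted p = 0.917). The interaction was 0.45 ± 0.20, with an unadjusted p of 0.0388 and an adjusted p of 0.676. A predicted antisense gene, Gm17473, overlaps exons of Angpt1, but it held 173 counts over all libraries, against 6031 for Angpt1.

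Markers of pericytes and platelets were set beside Angpt1. In flox brains Angpt1 averaged 6.37 CPM in hypoxia and 7.27 CPM in normoxia, with overlapping libraries and no call. The pericyte sum was higher in hypoxia there. Of 10 pericyte markers, 8 were called higher in KO in hypoxia and 7 in normoxia, and their summed level ran from 412 to 552 CPM in KO hypoxia, 270 to 277 in flox hypoxia, 360 to 387 in KO normoxia and 205 to 237 in flox normoxia. Platelets also carry Angpt1. Of 10 platelet markers 6 passed the filter, of which 2 (Pf4 and Ppbp; 1 of the 6 without KO hypoxia replicate 1) were called in hypoxia and 0 in normoxia, and their sum was 23.9 to 38.1 CPM in KO hypoxia, 21.8 to 25.2 CPM in flox hypoxia, 22.4 to 25.04 CPM in KO normoxia and 19.7 to 24.2 CPM in flox normoxia. Nbeal2, which was not called, made up most of this sum. It averaged 21.8 CPM against 29.1 CPM for the sum in KO hypoxia, and 19.7 against 23.5 CPM in flox hypoxia. In normoxia Nbeal2 averaged 18.8 CPM in KO brains and 17.9 CPM in flox brains, against sums of 23.8 and 22.5 CPM. The sum thus mainly follows Nbeal2 and cannot be read as platelet content. Pf4 lay between 0.471 and 2.5 CPM in KO hypoxia and between 0.0956 and 0.579 CPM in flox hypoxia. Ppbp lay between 0.174 and 2.13 CPM in KO hypoxia and between 0 and 0.0429 CPM in flox hypoxia. The part of either cell type in the Angpt1 result was not tested.

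The third angiopoietin, Angpt4, lies outside the rule for named genes because its mean is under 1 CPM, and it was named after its values were seen. It had 21, 19, 32 and 21 counts in KO hypoxia, against 2, 8 and 5 in flox hypoxia, and 5, 14 and 7 in KO normoxia, against 7, 8 and 8 in flox normoxia. Its level was 0.342 to 0.471 CPM in KO hypoxia and at most 0.2 CPM in every other library. It thus passed the filter on low counts through the KO hypoxia libraries, where it is high. A test after such a filter and choice lends no support, so only fold changes are given. The log2 fold change, KO over flox, was 1.90 ± 0.44 in hypoxia and 0.26 ± 0.47 in normoxia, with an interaction of 1.64 ± 0.65.

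The balance of the ligands was described by the Angpt2 to Angpt1 ratio, taken per length from the deposited RPKM values (counts scaled by gene length and library total). It was 1.4, 1.07, 1.29 and 0.924 in KO hypoxia, and 0.707, 0.521 and 0.762 in flox hypoxia. In normoxia it was 0.382, 0.427 and 0.489 in KO brains and 0.253, 0.23 and 0.275 in flox brains. The 4 groups thus formed 4 separate ranges in the order KO hypoxia, flox hypoxia, KO normoxia, flox normoxia, and Angpt2 exceeded Angpt1 in 3 of the 13 libraries, each a KO hypoxia library. The means were 1.17 ± 0.214 (SD, n = 4), 0.663 ± 0.126, 0.433 ± 0.0537 and 0.253 ± 0.0225 (n = 3 each) in that order.

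**Figure D2:**
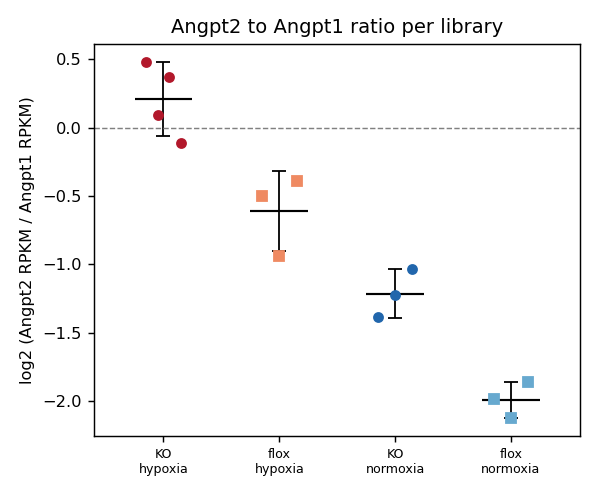
The log2 of the Angpt2 to Angpt1 ratio per length (vertical axis) in each of the 13 libraries, with the group means and SD. Groups from left to right are KO hypoxia, flox hypoxia, KO normoxia and flox normoxia. The ranges do not touch. As ratios before the log2 they are 0.924 to 1.4, 0.521 to 0.762, 0.382 to 0.489 and 0.23 to 0.275.

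The ratio was 1.74-fold higher in KO than in flox over both oxygen levels (log2 difference 0.80) and 2.64-fold higher in hypoxia than in normoxia over both genotypes (1.40). Both passed a two-sided exact permutation test within strata, each with p = 0.00286, the smallest that the 700 permutations can give, and an adjusted p of 0.01 over the 7 tests of the ratio. By the exact permutation test, the KO to flox ratio was 1.76-fold within hypoxia (p = 0.0571) and 1.71-fold within normoxia (p = 0.1). The hypoxia to normoxia ratio was 2.68-fold in KO (p = 0.0571) and 2.6-fold in flox (p = 0.1) by the same exact test. These 4 p-values are the smallest that 3 against 4 or 3 against 3 libraries allow, so such pairs cannot pass 0.05. The interaction was 0.04 on the log2 scale (p = 0.994 by exact permutation), and leaving out 1 library moved it between -0.12 and 0.15. That test permuted oxygen labels within each genotype, so the oxygen effect itself widened the permuted values. It could hardly detect a difference between oxygen effects of like direction, and no conclusion is drawn from its p-value.

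The receptor Tek had 31.4, 24.6, 23.5 and 22.3 CPM in KO hypoxia, against 12.4, 11.5 and 13.6 CPM in flox hypoxia. It had 19.8, 19.5 and 18.2 CPM in KO normoxia, against 8.80, 10.5 and 8.98 CPM in flox normoxia. Every KO library was above every flox library, whatever the oxygen level. The log2 fold change, KO over flox, was 1.03 ± 0.11 in hypoxia (adjusted p = 2.96e-05) and 1.03 ± 0.11 in normoxia (adjusted p = 0.000172), and the interaction was 0.01 ± 0.16 with a 95% interval of -0.33 to 0.34. Hypoxia over normoxia was 0.41 ± 0.10 in KO (adjusted p = 0.0752) and 0.40 ± 0.12 in flox (adjusted p = 0.456), in each case without overlap between libraries, as for 6.59% of genes in KO and 6.56% in flox.

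Tie1, the partner receptor, had 38.5, 24.5, 31.3 and 25.8 CPM in KO hypoxia, against 15.2, 11.0 and 14.9 CPM in flox hypoxia. In normoxia it had 23.0, 24.3 and 22.0 CPM in KO brains, against 9.23, 11.7 and 9.89 CPM in flox brains. Here too the lowest KO library lay above the highest flox library. The log2 fold change, KO over flox, was 1.14 ± 0.15 in hypoxia (adjusted p = 0.000143) and 1.17 ± 0.16 in normoxia (adjusted p = 0.000615). Hypoxia over normoxia was 0.38 ± 0.14 in KO (adjusted p = 0.221) and 0.41 ± 0.16 in flox (adjusted p = 0.636), and the interaction was -0.03 ± 0.21.

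Ptprb, the phosphatase that opposes Tek activation, had 135.7, 96.9, 103.2 and 76.9 CPM in KO hypoxia, against 51.8, 47.6 and 52.3 CPM in flox hypoxia. In normoxia it had 69.0, 86.0 and 65.7 CPM in KO brains, against 34.6, 40.2 and 38.4 CPM in flox brains. The genotypes did not overlap at either oxygen level, while KO hypoxia and KO normoxia overlapped. Ptprb rose in KO with a log2 fold change of 1.03 ± 0.14 in hypoxia (adjusted p = 0.000237) and 0.97 ± 0.15 in normoxia (adjusted p = 0.00238), about as much as the receptor it acts on. The oxygen effect, hypoxia over normoxia, was 0.49 ± 0.14 in KO (adjusted p = 0.107) and 0.42 ± 0.15 in flox (adjusted p = 0.579). Without KO hypoxia replicate 1, the KO over flox values in hypoxia were 0.92 for Tek, 0.99 for Tie1 and 0.87 for Ptprb, all still called. The hypoxia over normoxia values in KO were then 0.29 for Tek (adjusted p = 0.144), 0.24 for Tie1 (0.468) and 0.33 for Ptprb (0.214).

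Foxo1, the transcription factor that Tek signaling restrains, had 33.8, 30.2, 30.9 and 31.6 CPM in KO hypoxia, against 32.2, 34.0 and 30.1 CPM in flox hypoxia. It had 32.1, 28.1 and 33.5 CPM in KO normoxia, against 34.7, 31.8 and 34.6 CPM in flox normoxia. All groups overlapped. The log2 fold change, KO over flox, was -0.02 ± 0.07 in hypoxia (95% interval -0.16 to 0.12, adjusted p = 0.903) and -0.11 ± 0.07 in normoxia (-0.27 to 0.04, adjusted p = 0.548), and hypoxia over normoxia was 0.02 ± 0.07 in KO and -0.07 ± 0.07 in flox. Transcript counts do not show where the Foxo1 protein is in the cell.

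**Figure D3:**
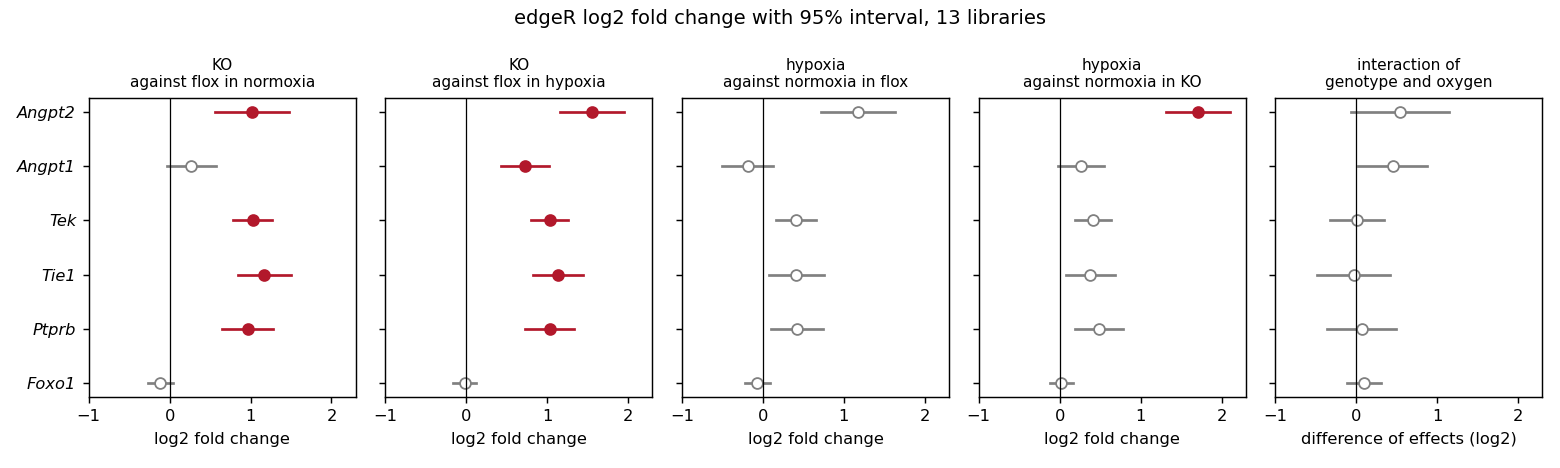
Log2 fold changes of the 6 genes (horizontal axis) with 95% intervals in the contrasts KO over flox in hypoxia and in normoxia and hypoxia over normoxia in KO and in flox, with filled points for an adjusted p under 0.05. Tek, Tie1 and Ptprb lie near 1 in both KO over flox contrasts, and Foxo1 lies near 0 in all 4.

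Per length, the members kept a different order in each group. In KO hypoxia, Ptprb averaged 7.82 ± 1.77 RPKM, Tie1 6.17 ± 1.25, Tek 5.46 ± 0.807, Foxo1 3.70 ± 0.157, Angpt2 2.39 ± 0.535 and Angpt1 2.05 ± 0.299 RPKM (SD, n = 4). In flox normoxia, Foxo1 was highest at 3.86 ± 0.17 RPKM, before Ptprb at 2.81 ± 0.223, Tie1 at 2.08 ± 0.269, Tek at 1.99 ± 0.207, Angpt1 at 1.39 ± 0.224 and Angpt2 at 0.353 ± 0.0872 RPKM (SD, n = 3). Tie1 and Tek overlapped in their libraries in both groups, and in KO hypoxia so did Ptprb and Tie1 and the pair of ligands. In flox hypoxia the order was Ptprb (3.76 ± 0.192 RPKM), Foxo1 (3.67 ± 0.22), Tie1 (2.76 ± 0.477), Tek (2.62 ± 0.228), Angpt1 (1.21 ± 0.169) and Angpt2 (0.798 ± 0.14 RPKM), with overlap between Ptprb and Foxo1 and between Tie1 and Tek. In KO normoxia it was Ptprb (5.49 ± 0.758 RPKM), Tie1 (4.67 ± 0.193), Tek (4.05 ± 0.169), Foxo1 (3.59 ± 0.356), Angpt1 (1.68 ± 0.195) and Angpt2 (0.724 ± 0.064 RPKM), where Tek and Foxo1 overlapped. Angpt2 was the lowest of the 6 in flox normoxia, below Angpt1 in each library.

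Of 18 endothelial markers, which do not include the 6 genes, 18 were called higher in KO in hypoxia (17 without KO hypoxia replicate 1) and 17 in normoxia, with median log2 fold changes of 1.13 in hypoxia and 0.96 in normoxia. Their summed level was 706 to 1188 CPM in KO hypoxia, 354 to 387 CPM in flox hypoxia, 543 to 615 CPM in KO normoxia and 271 to 306 CPM in flox normoxia. In RNA from whole tissue, more endothelial cells and more RNA of these genes per cell cannot be told apart. Each gene was also expressed as its log2 CPM minus the mean log2 CPM of the 18 markers. Its genotype and oxygen differences and their interaction were compared by two-sided exact permutation tests within strata. The markers' own log2 fold changes, KO over flox in hypoxia, ran from 0.43 (Slco1a4) to 2.32 (Ly6a). Values on this scale thus depend on the markers averaged and are not levels per cell. These 18 tests, with p-values adjusted over them, were added after the data were seen.

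Relative to the endothelial markers, Tek, Tie1 and Ptprb showed no detectable difference. The genotype differences, KO minus flox, were -0.02 for Tek, 0.11 for Tie1 and -0.07 (log2) for Ptprb, and the oxygen differences, hypoxia minus normoxia, were -0.003, -0.02 and 0.04 in the same order, with adjusted p of at least 0.375 by exact permutation. Angpt2 behaved otherwise. On this scale it was between -2.01 and -1.89 in KO hypoxia and between -2.56 and -2.18 in flox hypoxia. It was between -3.37 and -2.95 in KO normoxia and between -3.56 and -2.87 in flox normoxia. Every hypoxia library was thus above every normoxia library, KO hypoxia was above flox hypoxia, and the genotypes overlapped in normoxia. Of all genes tested, 0.853% lay higher on this scale without overlap in KO than in flox hypoxia, and 0.573% in KO and 0.453% in flox lay higher in hypoxia than in normoxia. KO hypoxia replicate 1, the highest in CPM, was also the highest of its group here, at -1.893 against -2.003, -2.007 and -1.953. The oxygen difference was 1.03 (adjusted p = 0.0171 by exact permutation, and 0.0225 to 0.04 on leaving out any 1 library). The genotype difference was 0.26 (adjusted p = 0.231), which passed only without flox normoxia replicate 3 (0.35, adjusted p = 0.0411).

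Angpt1 and Foxo1 were lower relative to the endothelial markers in KO, by a difference of -0.54 (adjusted p = 0.0257) and -1.11 (adjusted p = 0.0171 by exact permutation). For Angpt1 the adjusted p lay between 0.0514 and 0.06 on leaving out KO normoxia replicate 1, 2 or 3, flox normoxia replicate 1 or 2 or flox hypoxia replicate 1 or 2. The oxygen differences were -0.37 for Angpt1 (adjusted p = 0.0926; -0.43 and 0.036 without KO hypoxia replicate 4) and -0.43 for Foxo1 (adjusted p = 0.0171). Such a fall says only that these genes did not follow the markers: 86.1% of all genes tested lay lower on this scale in KO than in flox normoxia without overlap, and 82.4% in hypoxia. In hypoxia against normoxia the share was 50.5% in KO and 62% in flox. Relative to the 10 pericyte markers, Angpt1 averaged -1.01 ± 0.259 in KO hypoxia and -0.95 ± 0.185 in flox hypoxia, and -0.80 ± 0.0962 in KO normoxia and -0.42 ± 0.192 in flox normoxia (log2, SD), with overlap in hypoxia and none in normoxia, where 78.1% of all genes tested lay lower in KO without overlap.

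**Figure D4:**
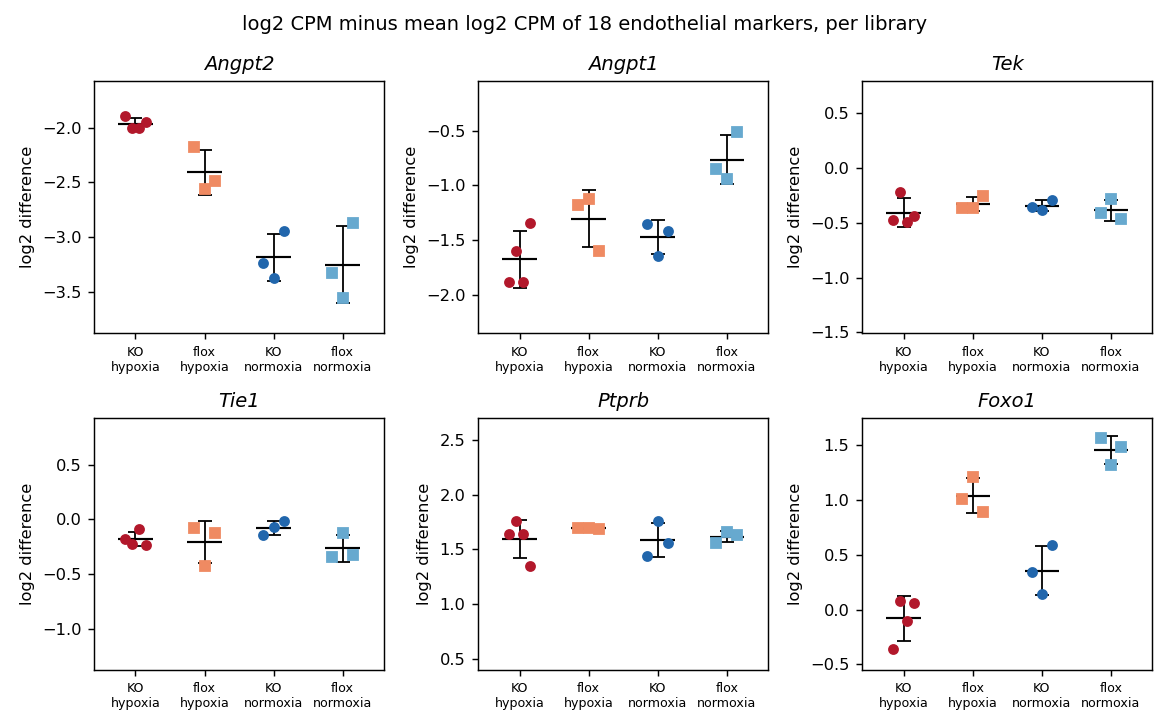
Log2 CPM of each of the 6 genes minus the mean log2 CPM of 18 endothelial markers (vertical axis) in the 13 libraries, by group from left to right KO hypoxia, flox hypoxia, KO normoxia and flox normoxia. Angpt2 lies between -2.01 and -1.89 in KO hypoxia, above the -3.37 to -2.95 of KO normoxia, while the group means of Tek lie between -0.41 and -0.33.

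Other marker lists also moved. Called higher in KO in hypoxia were 2 of 8 vascular smooth muscle, 5 of 7 perivascular fibroblast, 2 of 7 lymphatic endothelial, 5 of 7 border macrophage, 5 of 7 microglia, 7 of 7 erythroid and 3 of 7 astrocyte markers, and 0 of 7 neuronal markers. Called lower there were the astrocyte glutamate transporter Slc1a2 (-0.23 ± 0.04) and the neuronal Map2 (-0.20 ± 0.05). Without KO hypoxia replicate 1 the counts called higher in hypoxia were 1 vascular smooth muscle, 5 perivascular fibroblast, 2 lymphatic endothelial (of 6 tested), 3 border macrophage, 3 microglia, 6 erythroid, 4 astrocyte and 0 neuronal markers. In normoxia, with all libraries, 0 vascular smooth muscle, 1 perivascular fibroblast, 2 lymphatic endothelial, 1 border macrophage, 0 microglia, 5 erythroid, 1 astrocyte and 0 neuronal markers were called higher. Called lower in normoxia were Prox1, of the lymphatic list (-0.63 ± 0.10), and the astrocyte marker Gja1 (-0.26 ± 0.05). Within the lymphatic list Prox1 averaged 36.2 CPM and Reln 114 CPM, against 1.42 CPM for Lyve1 and 0.121 CPM for Mmrn1. The genes of that list called higher were Pdpn and Flt4. Which cells of whole brain these transcripts came from was not tested, so they cannot be read as lymphatic endothelium. The erythroid sum ran from 3409 to 17400 CPM in KO hypoxia, with the highest value in replicate 1, and from 449 to 671 CPM in flox hypoxia, 974 to 1701 CPM in KO normoxia and 140 to 262 CPM in flox normoxia. Their part in the results of the 6 genes was not tested.

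Of 17 other ligands and extracellular modulators of the Tie receptors, 16 were tested. Of these, 8 were called higher in KO in hypoxia and 1 (Cdh5) in normoxia, with medians of 0.43 and 0.18. Angpt4 is among the 8, but its call lends no support, because it passed the filter through the KO hypoxia libraries. Cdh5, the endothelial cadherin that Ptprb binds and a member of the marker list too, rose by a log2 fold change of 1.30 ± 0.14 in hypoxia and 1.04 ± 0.15 in normoxia. In hypoxia Angptl2, an angiopoietin-like secreted protein, rose by 0.71 ± 0.11, the integrin subunit Itgb1 by 0.62 ± 0.09 and the membrane protease Mmp14 by 0.43 ± 0.10. Ptprj, another receptor phosphatase, was at -0.06 ± 0.05 and the integrin subunit Itgav at -0.02 ± 0.05, and neither was called. Hypoxia over normoxia was called for 2 of the 16 in KO (Itgb1 and Cdh5) and 0 in flox. Without KO hypoxia replicate 1, 7 of the 16, again with Angpt4, were called higher in KO in hypoxia and 1 for hypoxia over normoxia in KO.

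Downstream of Tek, 5 of 28 adaptors and effectors rose and 1 fell in KO in hypoxia, and 3 rose in normoxia (Nos3, Akt2 and Rap1b), with list medians of -0.03 and 0.02. Nos3, the endothelial nitric oxide synthase, averaged 21.6 ± 3.73 CPM in KO hypoxia (n = 4) and 7.58 ± 1.14 CPM in flox hypoxia (n = 3), a log2 fold change of 1.51 ± 0.12. In hypoxia the scaffold Iqgap1 rose by 0.59 ± 0.11, the adaptor Shc1 by 0.50 ± 0.11 and the kinase Akt2 by 0.44 ± 0.06. Pak1, a kinase recruited through the adaptor Nck1, fell by 0.13 on the log2 scale in KO in hypoxia (adjusted p = 0.0469) and by 0.18 under hypoxia in KO (adjusted p = 0.0409), and both calls were lost without KO hypoxia replicate 1. The phosphatase Ptpn11 was at 0.04 ± 0.04 in KO in hypoxia and was not called.

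Of 24 FOXO family members and FOXO target genes, 4 rose in KO in hypoxia and 1 (Klf2) in normoxia, with medians of -0.02 and 0.02. Klf2, a flow-responsive endothelial transcription factor, rose by 1.10 ± 0.22 in hypoxia and 1.03 ± 0.24 in normoxia. In hypoxia Txnip, an inhibitor of thioredoxin, rose by 1.00 ± 0.25, the cell cycle inhibitor Cdkn1a by 0.99 ± 0.16 and catalase (Cat) by 0.21 ± 0.05. Sod2 and Sesn3, both FOXO targets of oxidative stress defence, were at -0.07 ± 0.04 and 0.02 ± 0.05 and were not called. Without KO hypoxia replicate 1, 3 of the 24 were called in KO in hypoxia, and no gene of the list was called for hypoxia over normoxia in either genotype.

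Of 21 genes listed as inputs to Angpt2 expression, 14 rose in KO in hypoxia and 12 in normoxia, none fell, and the medians were 0.64 and 0.49. Flt1 and Erg are also among the 18 endothelial markers. Whether any of these genes acted on Angpt2 here was not tested. Klf4, a transcription factor raised by loss of the CCM complex, averaged 32.1 ± 9.92 CPM in KO hypoxia and 10.3 ± 1.83 CPM in flox hypoxia, a log2 fold change of 1.65 ± 0.24. Among the ETS factors Erg rose by 1.24 ± 0.13, Fli1 by 1.23 ± 0.16 and Elk3 by 0.98 ± 0.11 in hypoxia. Hif1a, which is regulated mainly through protein stability, and its partner Arnt were at 0.12 ± 0.05 and -0.05 ± 0.04 and were not called. For hypoxia over normoxia, Kdr, the main VEGF receptor, was called in flox (0.84 ± 0.13, adjusted p = 0.031), and in KO 5 genes were called: Vegfa (0.60 ± 0.10), Flt1 (0.58 ± 0.11), Erg (0.57 ± 0.12), Kdr (0.56 ± 0.11) and Wwtr1 (0.36 ± 0.08). Without KO hypoxia replicate 1, 13 of the 21 were called in KO in hypoxia and 2 for hypoxia over normoxia in KO.

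Of 17 genes of vessel maturation by mural cells, 11 rose in KO in hypoxia and 7 in normoxia, with medians of 0.50 and 0.31. Acvrl1, the endothelial BMP9 receptor, rose by 1.44 ± 0.15 in hypoxia, the TGF-beta receptor Tgfbr2 by 1.08 ± 0.14, the venous ephrin receptor Ephb4 by 1.00 ± 0.11 and the ligand Tgfb1 by 0.92 ± 0.11. The receptor S1pr1 was at -0.02 ± 0.06 and N-cadherin (Cdh2) at 0.05 ± 0.04. The oxygen contrast was called for Eng, Tgfb1 and Notch3 in KO, and for 1 of the 17 without KO hypoxia replicate 1.

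Across the 13 libraries, the log2 CPM of Tek and Tie1 had a Pearson r of 0.984, Tek and Ptprb of 0.979, and Tie1 and Ptprb of 0.972, and of 0.817, 0.81 and 0.774 after each group's mean was removed. Angpt2 followed them less closely, with r of 0.873 to Tek, 0.852 to Tie1 and 0.884 to Ptprb, and the ligands had r of 0.697 to one another. Foxo1 had r between -0.415 and 0.045 with the other 5. With group means removed, r was 0.44 to 0.618 between Angpt2 and the receptors and Ptprb, 0.551 between the ligands, 0.564 between Foxo1 and Angpt1, 0.477 between Foxo1 and Angpt2, and -0.181 to -0.11 between Foxo1 and the other 3. These are descriptions of 13 libraries that share group and endothelial content.

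Among 14009 genes with a mean of at least 1 CPM, the 5 with the pattern most like that of Tek were Acvrl1 (r = 0.991), Kank3, Adgrl4, Nos3 and Esam. Those of Tie1 were Lsr (r = 0.993), Icam2, Acvrl1, She and Lgals9, and those of Ptprb were Adgrf5 (r = 0.983), Acvrl1, Flt4, Fgd5 and Esam. For Angpt2 they were A2m (r = 0.971), Apln, Vegfa, Eno1b and Col4a1, none of them shared with the receptors. Vegfa, the growth factor of endothelium, had 140 ± 14.2 CPM in KO hypoxia, 101 ± 9.77 in flox hypoxia, 92.3 ± 12.6 in KO normoxia and 67.2 ± 7.62 CPM in flox normoxia, the order of the ligand ratio, with overlap between flox hypoxia and KO normoxia. For Angpt1 they were Rnase4 (r = 0.939), S100a10, Slc39a1, Calu and Slc1a3, the last an astrocyte glutamate transporter, and for Foxo1 Arhgef28 (r = 0.835), Tacr3, Cpne7, Acvr2a and Zmynd10.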

How the data were processed

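Raw counts and RPKM values per gene were deposited by the authors for the same 55416 Ensembl identifiers. The submitters' processing notes list HISAT2, GRCm39 and edgeR, with no roles. The sources used here name neither the annotation nor the strand setting of the counting. Dividing the deposited counts by the library total and 1 length per gene gives the deposited RPKM exactly, to rounding. A name table gave symbols for 52083 identifiers. A stranded mRNA kit was used on 50 ng of RNA (integrity number over 8), per the series' design text.

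The test of counts was edgeR 4.0.16 (R 4.3.3, filterByExpr, TMM scaling, quasi-likelihood test, 1 mean per group over 13 libraries, 22507 genes), with Benjamini-Hochberg adjustment over all genes of a contrast and a threshold of 0.05. CPM values are TMM-scaled. Standard errors of fold changes (log2) come from the quasi-likelihood F statistic. Ratios and levels relative to markers were compared by exact permutation over libraries, and the fits were tested on simulated data. The labels give no animal identifier, so p-values measure the spread between libraries, and floors cover counting error only. No batch is given in the labels. Alternatives were other scalings and filters, DESeq2 1.42.0, limma 3.58.1 on log2(RPKM + 1) and log2(RPKM + 0.1), fits of only the libraries compared, a replicate block, a term for Xist and leaving out each library. List counts without KO hypoxia replicate 1 and the levels relative to markers were added later, with the data known.

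The members and the lists (5 pathway and 11 marker lists) were chosen with earlier results of these data known. All 6 members are named in each contrast. Of each pathway list, up to 4 genes are named with the largest absolute log2 fold change among those called in KO over flox in hypoxia with a mean of at least 1 CPM, and up to 2 of highest mean CPM that were not called. One gene that meets this rule is not reported here. The 5 genes of highest Pearson r with each member were named, leaving out predicted genes. Genes named as the few called in a contrast lie outside this rule and were picked with their values known. Promoters are RefSeq's on GRCm38.p6, another build than the counts', and were used for sequence only.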

Additional observations from a re-analysis of the deposited data

How the results depend on the processing

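Under the alternatives tried, the calls of Tek, Tie1 and Ptprb in KO over flox held in both oxygen levels, as did those of Angpt2 and Angpt1 in hypoxia. The number of members called moved for hypoxia over normoxia. In KO it was 4 with no filter, 2 with DESeq2, 2 with the replicate block and 2 with the Xist term, and 1 to 2 on leaving out 1 library. In flox it was 3 with no filter (Angpt2, Tek and Ptprb), 1 with DESeq2 and 1 with only the libraries compared, and 0 to 1 on leaving out 1 library. For KO over flox it was 5 in hypoxia and 3 to 4 in normoxia on leaving out 1 library. No source used here says that replicate numbers pair the libraries. Over 18 pairs of like number the correlations of deviations ran from -0.039 to 0.227. Of these, 4 were over 0.1, among them 0.133, 0.227 and 0.14 between libraries numbered 3. Pairs of unlike number were not compared, so this check cannot exclude pairing. With the replicate block the ratio differed by 0.85 between genotypes and 1.46 (log2) between oxygen levels, each with an adjusted p of 0.292, and this stratified test has too few pairs to pass. The genotype and oxygen differences of the ratio passed on leaving out any 1 library. The ratio's interaction ran from -0.12 to 0.154 on leaving out 1 library.

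Small values changed sign. Foxo1, KO over flox in hypoxia, was 0.009 with no composition factor, 0.008 and 0.01 with limma, and -0.066 to 0.021 on leaving out 1 library, and hypoxia over normoxia in KO was -0.051 to 0.073. The interaction of Tie1 was 0.038 with limma, 0.029 with the replicate block, 0.023 with the Xist term and -0.176 to 0.057 on leaving out 1 library, that of Tek -0.111 to 0.068 and that of Ptprb -0.094 to 0.194. Relative to the markers, leaving out 1 library gave -0.035 to 0.024 for the oxygen difference and -0.05 to 0.008 for the genotype difference of Tek, -0.056 to 0.032 for the oxygen difference of Tie1, and -0.126 to 0.099 for the interaction of Foxo1 and -0.139 to 0.017 for that of Ptprb.

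All genes called, set against 524, 2039, 5 and 202 in the report's fit, numbered 995 with no filter, 874 with DESeq2 and 249 and 333 with limma for KO over flox in normoxia (250 to 397 on leaving out 1 library), and 1151 to 2490 in hypoxia. For hypoxia over normoxia in flox they numbered 158, 67, 2 and 2, and 19 with only the libraries compared (0 to 45). In KO they numbered 833, 755, 46 and 42, and 30 with only the libraries compared (2 to 463). For the interaction they numbered 55 with no filter, 5 with DESeq2, 2 and 2 with limma and 1 with the replicate block. The cause of these shifts was not tested. Of the 6 genes Angpt2 had the fewest counts, 61 to 113 per library in flox normoxia.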
